A study of Mus musculus with 3 samples.

Results

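Copying a genome starts with the licensing of replication origins, and the genes described here encode the proteins that license, unwind and copy DNA. The set held 39 genes, listed by what their proteins do and chosen with earlier results of these data known. Other subunits of the same complexes are in a further list given below. A gene was kept when any of its probes passed the scanner software's test for standing well above background on 1 or more arrays. All 39 met that rule, among the 22851 genes detected on the arrays. They were read by 52 probes, of which 50 were detected, among 32108 detected probes of 55679.

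RNA from spleens that carried an islet graft was measured on 3 arrays, 1 for each time after transplantation. The mice were C57BL/6J by the labels, males by the study's methods, and all 3 spleens came from recipients made diabetic with streptozotocin that received syngeneic islets, 25 of them placed in the spleen with a further 100 under the capsule of a kidney. Sample 1 was taken immediately afterwards (day 0), Sample 2 on day 2, and Sample 3 on day 139 after nephrectomy on day 100 of the kidney that held the other islets. Because each time had 1 array, no test between conditions was possible, and every difference below is a difference between 3 RNA samples. The capsular islets stand in the protocol text for all samples but in the treatment label of Sample 3 alone. The methods give 1 age range for all mice and the labels none per sample, with no number of mice per array. Day, time since surgery, age and nephrectomy cannot be told apart in Sample 3, and the RNA was that of a whole graft-bearing spleen, with the islets in it.

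In G1 phase, the origin recognition complex, with Cdc6 and Cdt1, loads the ring-shaped MCM helicase onto DNA, and geminin blocks Cdt1 until the next cycle. Cdc45 and the GINS complex turn the loaded ring into an active helicase at the start of S phase. Polymerase alpha with primase then lays down primers, polymerases epsilon and delta extend them while held on DNA by the PCNA clamp, and Fen1 and Lig1 join the fragments of the lagging strand. Many of these genes are targets of E2F factors. The mouse spleen is also a blood-forming organ, so its dividing cells include erythroblasts beside activated lymphocytes.

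Promoter sequence was looked at first, because E2F control is the textbook link between these genes. The RefSeq promoter table of GRCm38.p6 held 31 of the 39 genes, with 300 bases each, 250 before the start of the transcript and 50 after it. The E2F motif was searched as TTTCCCGC, TTTCGCGC, TTTGCCGC and TTTGGCGC on both strands, with overlapping matches counted, and a gene with several starts counted when any of its windows held a match. It was present in 13 of the 31 genes, which is 41.9%, and in 2.6% of the 27025 genes of the table. Among detected genes with a promoter in the table the share was 4.16%. The shorter motif CCAAT, also on both strands, was in 61.3% of the 31 genes and in 41.1% of all genes of the table. The stretches below lie before the start of 4 genes that differed in their ratios, 2 MCM subunits, the loading factor Cdc6 and the DNA methylation factor Uhrf1. Capitals mark the E2F motif on either strand.
Mcm5 promoter, chr8:75109317-75109406, plus strand: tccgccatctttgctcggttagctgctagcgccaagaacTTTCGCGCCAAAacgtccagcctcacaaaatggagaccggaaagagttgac
Mcm6 promoter, chr1:128359736-128359825, minus strand: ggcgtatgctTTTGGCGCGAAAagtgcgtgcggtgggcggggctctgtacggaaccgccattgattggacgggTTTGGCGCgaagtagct
Cdc6 promoter, chr11:98907972-98908061, plus strand: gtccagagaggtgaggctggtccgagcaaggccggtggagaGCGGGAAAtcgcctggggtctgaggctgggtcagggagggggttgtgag
Uhrf1 promoter, chr17:56304087-56304176, plus strand: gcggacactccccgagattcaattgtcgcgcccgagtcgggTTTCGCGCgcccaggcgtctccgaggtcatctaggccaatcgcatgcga

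In Mcm5 and Mcm6 matches on opposite strands overlap, so that 1 run of capitals holds 2 matches, and Mcm6 has a further match nearer to the start. A match shows letters in a window and not binding of a factor.

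Some of the probes also show which part of a transcript was read. The 4 probes below are printed because they bear on genes whose ratios stood apart or whose probes can be compared. The Rfc4 probe covers the stretch of the clamp loader subunit that encodes its Walker A nucleotide-binding motif, which is in capitals. The Uhrf1 probe is the dimmer of the 2 probes of that gene. By the normalized signals given below, Pold1 was among the few genes higher in Sample 3 than in Sample 1. By the same signals, Rfc3 was the most even of the set. Those of Uhrf1, Pold1 and Rfc3 cross a splice junction, since their genomic span is longer than the probe. All 4 have an open reading frame on the strand printed, with positions on mm9 as the array's annotation gives them.
Rfc4 probe, chr16:23120982-23121041, minus strand: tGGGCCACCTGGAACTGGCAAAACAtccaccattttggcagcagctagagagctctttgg
Uhrf1 probe, chr17:56451668-56452321, plus strand: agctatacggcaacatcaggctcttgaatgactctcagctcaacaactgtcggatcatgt
Pold1 probe, chr7:51788221-51788589, minus strand: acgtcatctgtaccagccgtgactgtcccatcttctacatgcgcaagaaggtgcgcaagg
Rfc3 probe, chr5:152448247-152450045, minus strand: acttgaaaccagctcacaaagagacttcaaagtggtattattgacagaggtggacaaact

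The arrays differed in several ways that touch every ratio below. The share of probes well above background was 54.4% on day 0, 53.8% on day 2 and 50.4% on day 139. After quantile normalization, which gives each array the same set of signal values in arbitrary units, 38 of the 39 genes were well above background on all 3 arrays and 0 of their spots were saturated. The spike-in controls, RNAs added in known amounts before labeling, were before normalization at 104% in Sample 2 and 66.0% in Sample 3 of their level in Sample 1. Scaling by them instead moved the median log2 ratio of all detected genes in Sample 3 over Sample 1 from -0.00 to 0.38, and over Sample 2 from -0.03 to 0.40. Levels in Sample 3 are therefore given relative to other genes. Where the direction of a gene of the set described below turns under spike-in scaling, the turned value is given with it. The error of a log2 ratio, from the scanner software's estimate for each spot, had a median of 0.20 in each comparison. This error covers the spot alone and neither labeling nor mice. A log2 ratio below is that of normalized signals of the brightest detected probe of a gene.

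Most replication genes had their highest quantile normalized signal on day 2 and their lowest on day 139. On day 2, 32 of the 39 genes were higher than on day 0 and 7 lower, against 52.8% and 47.2% of all detected genes. In Sample 3, 35 genes were lower than in Sample 1 and 4 higher, against 50.3% and 49.7%. Compared with Sample 2, 38 were lower and 1 higher, against 52.4% and 47.5%. With spike-in scaling 24 and 29 of the 39 genes were lower in these comparisons of Sample 3. The shares of all genes just given are as quantile normalized and do not apply to those counts. The matching shares under spike-in scaling are not given. The median log2 ratio of the 39 genes was 0.24 in Sample 2 over Sample 1, -0.47 in Sample 3 over Sample 1 and -0.77 in Sample 3 over Sample 2, whereas over all detected genes it was 0.02, -0.00 and -0.03. With spike-in scaling the 3 medians of the set were 0.26, -0.077 and -0.39, against medians of all genes of -0.03, 0.38 and 0.40, so the set stayed below other genes in Sample 3 while the difference in level itself became smaller. The comparisons share samples and are not independent of each other.

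Signals ran from Sample 2 through Sample 1 to Sample 3 in 28 of the 39 genes, or 71.8%, against 19.8% of all detected genes. Sample 3 was the lowest in 34 genes (87.2%, against 37.6%) and Sample 2 the highest in 32 (82.1%, against 34.6%). No gene of the set (0 of 39) had its highest signal in Sample 3, where 34.9% of all detected genes had theirs. The order depends on the scaling, since with spike-in scaling Sample 3 was the lowest in 22 genes (56.4%, against 12.3% of all) and Sample 2 the highest in 26 (66.7%, against 14.2%). Cdc45, Gins2, Pold1, Pold2, Pole2, Rfc2, Rfc3 and Rpa3 were then highest in Sample 3, which is 20.5% of the set against 69.3% of all detected genes. Differences larger than the spot error were fewer on day 2, with 21 genes higher and 2 lower in Sample 2 than in Sample 1 and 16 within that error. In Sample 3 over Sample 1 the corresponding counts were 2, 32 and 5, and over Sample 2 they were 0, 35 and 4. The share of all detected genes past that error is not given, so these counts do not set the genes apart from others.

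**Figure D1:**
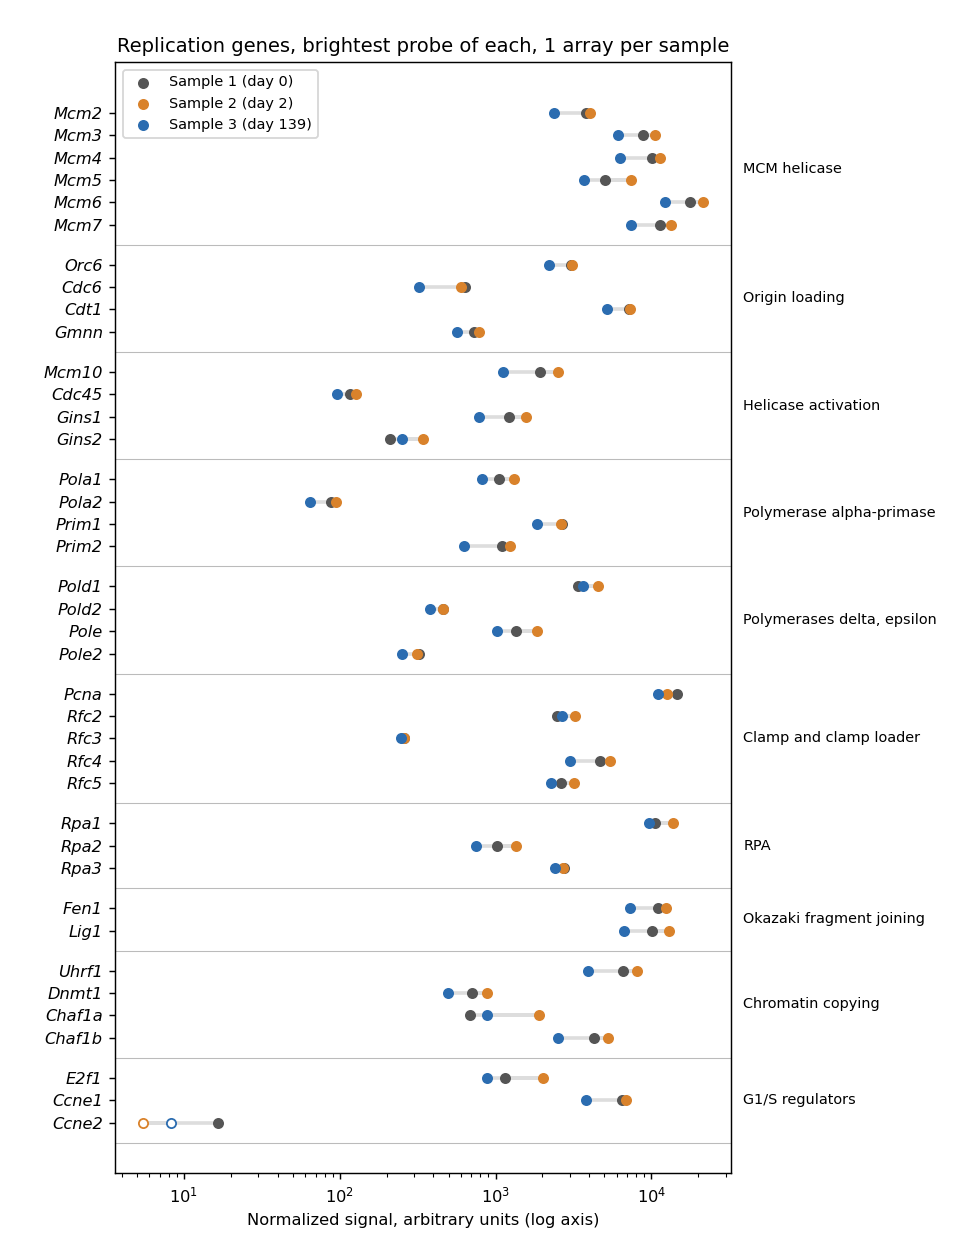
Normalized signal of the brightest detected probe of each of the 39 genes (log axis, arbitrary units), with 1 point for each sample and hollow points where the probe was not well above background. Signals were lowest in Sample 3 in 34 genes and highest in Sample 2 in 32 (22 and 26 with spike-in scaling), and levels of different genes are not comparable because each has its own probe.

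Ratios of at least 1.5-fold separated fewer genes. The study's methods name that ratio jointly with a Z-score of 2, so counts by the ratio alone do not follow its full rule. At least 1.5-fold lower in Sample 3 than in Sample 1 were 14 of the 39 genes, or 35.9%, against 14.2% of all detected genes, and 0 were higher against 13.6%. Adding a Z-score of 2, which sets a ratio against the spread of probes of like signal, left 1 gene higher on day 2 (2.23% of all genes) and 0 lower (2.91%). In Sample 3 over Sample 1 it left 0 lower (2.47%) and 0 higher (3.07%), and over Sample 2 it left 1 lower (1.99%) and 0 higher (2.87%). By the ratio alone against Sample 2, 22 genes (56.4%) were lower by that limit, with 14.1% of all genes, and 0 were higher, with 12.9%. In Sample 2 over Sample 1, 3 genes were at least 1.5-fold higher (Chaf1a, E2f1 and Gins2), with 9.96% of all genes, and 1 was lower (Ccne2), with 10.2%. The day 2 share is thus below that of all genes, and the higher signals of day 2 were many and small. With spike-in scaling 2 genes were at least 1.5-fold lower and 2 higher in Sample 3 over Sample 1, and 7 lower and 1 higher over Sample 2. The shares of all genes above are as quantile normalized and do not apply to these counts. Under that scaling the median of all detected genes was itself 0.38 over Sample 1 and 0.40 over Sample 2. Ccne2, which is too dim in Samples 2 and 3 to give a fold, is 1 of the 2 lower genes and the 1 higher gene over Sample 2, and without it the counts were 1 lower, 2 higher, 7 lower and 0 higher. Taken relative to the median of all genes under that scaling, a choice made after seeing the data, the lower genes again numbered 14 and 22.

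The MCM helicase is the hexameric ring that is loaded at origins and later unwinds DNA. The ratios of its 6 subunits lay close together in Sample 3 over Sample 2. On day 2 the log2 ratios of the subunits ran more widely, from 0.09 to 0.55. Their medians of the log2 ratio were 0.24 in Sample 2 over Sample 1, -0.57 in Sample 3 over Sample 1 and -0.83 in Sample 3 over Sample 2. Mcm2, which had the smallest difference on day 2, had signals of 3811, 4070 and 2376 in Samples 1, 2 and 3. Mcm5 had the largest difference on day 2, with signals of 5016, 7352 and 3723, which was 1.97-fold lower in Sample 3 than in Sample 2. Both subunits were lowest on day 139, and Mcm5 on day 2 lay above its day 0 signal by 0.55 on the log2 scale. Mcm4 had signals of 10140, 11311 and 6275, the lowest ratio of the ring in Sample 3 over Sample 1 at -0.69. Mcm3, with signals of 8885, 10479 and 6144, had the smallest difference between Samples 2 and 3, at -0.77. Mcm6 and Mcm7, the remaining subunits, were 1.45-fold and 1.52-fold lower in Sample 3 than in Sample 1. All 6 were at least 1.5-fold lower in Sample 3 than in Sample 2, within a range of log2 ratios from -0.98 to -0.77, and all 6 stayed lower in Sample 3 in both comparisons under spike-in scaling.

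The factors that load the ring, counted here and below with the inhibitor geminin, were near their day 0 signals on day 2 and lower on day 139. The median over Orc6, Cdc6, Cdt1 and Gmnn was 0.02 in Sample 2 over Sample 1, which is within the spot error, -0.48 in Sample 3 over Sample 1 and -0.50 over Sample 2. Cdc6, the ATPase that brings the ring to the origin recognition complex, had signals of 637, 597 and 322. It was 1.97-fold lower in Sample 3 than in Sample 1, the largest such ratio among genes well above background on every array, and its second probe gave 375, 410 and 182. Both Cdc6 probes therefore read the lowest signal on day 139, although they differed in direction on day 2 by log2 ratios of -0.09 and 0.13. Orc6, a subunit of the origin recognition complex, had signals of 3069, 3097 and 2204. The day 2 ratio of Orc6, 0.013, turned to -0.012 with spike-in scaling. Cdt1, the partner of Cdc6, had 7175, 7310 and 5168. Gmnn, which encodes geminin, the inhibitor of Cdt1, had 724, 781 and 563. Loader and inhibitor were thus lower together in Sample 3, by log2 ratios over Sample 1 of -0.47 and -0.36, of which that of Gmnn turned to 0.03 with spike-in scaling.

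Genes that activate the helicase varied more among themselves. Mcm10, which helps to turn the loaded helicase on, had signals of 1922, 2512 and 1123, a log2 ratio of -1.16 in Sample 3 over Sample 2. It was 2.24-fold lower there, and it was the only gene of the set that also passed a Z-score of -2 in that comparison. Gins1, a subunit of the GINS complex, had 1219, 1565 and 782, and followed the same order. Gins2, another GINS subunit, departed from it, with signals of 210, 341 and 251. It was 1.62-fold higher in Sample 2 than in Sample 1 and in Sample 3 still lay above Sample 1, by a log2 ratio of 0.26. Its ratio of -0.44 over Sample 2 turned to 0.0083 with spike-in scaling. Cdc45, the other partner of the active helicase, was dim, with signals of 116, 128 and 96.7. Its log2 ratio in Sample 3 over Sample 1 was -0.26 with an error of 0.22, and it turned to 0.12 with spike-in scaling, as did that over Sample 2, from -0.41 to 0.027. The medians of these 4 genes were 0.37, -0.45 and -0.72 in the order used above.

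Polymerase alpha and primase, which start each new strand, were lower on day 139 by all 4 genes. Their medians were 0.14 in Sample 2 over Sample 1, -0.49 in Sample 3 over Sample 1 and -0.62 in Sample 3 over Sample 2. Prim2, the large primase subunit, had signals of 1095, 1236 and 626, and was lower in Sample 3 than in Sample 1 by a log2 ratio of -0.81. Prim1, the small catalytic primase subunit, had 2688, 2651 and 1843. Pola1, the catalytic subunit of polymerase alpha, had 1047, 1317 and 815, and its ratio over Sample 1 turned from -0.36 to 0.04 with spike-in scaling. The primase subunits differed on day 2, when Prim1 was level with day 0, and shared the lower signal on day 139. Pola2 was the dimmest of the 4, with a signal of 64.9 in Sample 3.

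The polymerases that extend the strands had a median nearer to 0 on day 139 than polymerase alpha and primase. Over Pold1, Pold2, Pole and Pole2 the medians were 0.22, -0.32 and -0.33, and the latter 2 turned to 0.07 and 0.10 with spike-in scaling. Pole, the catalytic subunit of polymerase epsilon, had signals of 1347, 1850 and 1017, and was 1.82-fold lower in Sample 3 than in Sample 2. Pold1, the catalytic subunit of polymerase delta, had 3402, 4578 and 3637, so that its day 139 signal lay above that of day 0 by 0.10 on the log2 scale, within the spot error. As quantile normalized, the catalytic subunits of both polymerases were highest on day 2, and Pole but not Pold1 was lowest on day 139. With spike-in scaling neither order held in full, since Pole in Sample 3 over Sample 1 turned to 0.00064 and Pold1 in Sample 3 over Sample 2 to 0.072. The accessory subunits were flatter on day 2. Pold2 had signals of 457, 463 and 379, and Pole2 had 322, 311 and 249. With spike-in scaling Pold2 turned to 0.12 over Sample 1 and 0.16 over Sample 2 in Sample 3, and Pole2 to 0.019 and 0.13. Pold2 also turned on day 2, from 0.019 to -0.038.

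The clamp and its loader ranged from Rfc3 to Rfc4. As quantile normalized, Rfc3 had the smallest ratios of the set in both comparisons of Sample 3. Their medians were 0.22 in Sample 2 over Sample 1, -0.21 in Sample 3 over Sample 1 and -0.29 in Sample 3 over Sample 2, and the latter 2 turned to 0.19 and 0.13 with spike-in scaling. Pcna, the sliding clamp, was highest on day 0, with signals of 14644, 12610 and 11015. Rfc3, a loader subunit, had 260, 257 and 247, which was level across the 3 samples within the spot error. Rfc2, another subunit, had 2467, 3244 and 2654, and was 1.08-fold above day 0 on day 139. With spike-in scaling Rfc3 turned to 0.31 over Sample 1 and 0.39 over Sample 2, beyond the spot error, and over Sample 2 Pcna turned to 0.13 and Rfc2 to 0.13. Rfc4, whose Walker A sequence is printed above, departed from these with signals of 4662, 5435 and 2986. Its probe over that sequence gave 1009, 1105 and 580, and the 2 probes had log2 ratios in Sample 3 over Sample 1 of -0.64 and -0.80. Subunits of the same pentameric loader therefore ranged from -0.64 to 0.11 in that comparison, a span larger than the spot error.

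The probes of Rfc5 went opposite ways on day 139 as quantile normalized. The brighter probe (chr5:117829243-117829302 of mm9) had signals of 2622, 3189 and 2271, and the dimmer one (chr5:117836290-117836349), which is annotated to an Ensembl transcript, had 150, 184 and 213. Their log2 ratios in Sample 3 over Sample 1 were -0.21 and 0.50. With spike-in scaling the brighter probe turned to 0.19, the direction of the dimmer one. On day 2 both were higher than on day 0, by 0.28 and 0.29.

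Replication protein A, which coats single-stranded DNA at the fork, was uneven across its 3 subunits. The medians were 0.38, -0.19 and -0.52, and that of Sample 3 over Sample 1 turned to 0.22 with spike-in scaling. Rpa2, the middle subunit, had signals of 1024, 1345 and 745. Rpa1, the large subunit, had 10626, 13792 and 9611. Rpa3, the small subunit, had 2747, 2698 and 2414. Rpa2 was thus 1.81-fold lower in Sample 3 than in Sample 2, Rpa1 1.44-fold and Rpa3 1.12-fold, of which Rpa3 lay within the spot error. With spike-in scaling Rpa3 turned to 0.26 over Sample 2 and to 0.22 over Sample 1, and Rpa1 over Sample 1 turned from -0.14 to 0.26. The 2 probes of Rpa1 gave nearly equal log2 ratios over Sample 2, -0.52 and -0.50.

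Fen1, the nuclease that trims the flaps of lagging-strand fragments, and Lig1, the ligase that seals them, were lower on day 139 in both comparisons and under both scalings. Fen1 had signals of 11006, 12387 and 7315. Lig1 had 10064, 12937 and 6667. The ratios of the nuclease and the ligase were alike over Sample 1, both at -0.59 on the log2 scale, while Lig1 was 1.29-fold higher on day 2 than on day 0 and 1.94-fold lower in Sample 3 than in Sample 2.

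The genes that copy chromatin and DNA methylation behind the fork had the lowest median of the 10 role groups in Sample 3 over Sample 2, at -1.06. Their medians over Sample 1 were 0.32 on day 2 and -0.62 on day 139, and the sign of each of these medians was the same with spike-in scaling. Chaf1a, the large subunit of the histone chaperone CAF-1, had signals of 688, 1907 and 876. Its day 2 signal was 2.77 times that of day 0, at a Z-score of 3.36, the largest difference of the set among genes well above background on every array. Chaf1b, the subunit that forms a complex with it, had 4302, 5236 and 2511, and was 1.22-fold higher on day 2. The partners were hence far apart on day 2 and alike in Sample 3 over Sample 2, at log2 ratios of -1.12 and -1.06. Chaf1a had a single detected probe, so its day 2 signal had no second reading. Uhrf1, which recruits the maintenance methyltransferase to new DNA, had signals of 6618, 8135 and 3922 by its brighter probe and 52.5, 101 and 40.0 by the probe printed above. These probes disagreed on day 2, with log2 ratios of 0.30 and 0.94, and were both lower on day 139, by -0.75 and -0.39. Dnmt1, that methyltransferase, had 703, 888 and 499.

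The regulators of entry into S phase ended the list. E2f1, the transcription factor after which the motif is named, had signals of 1144, 2025 and 879, which was 1.77-fold higher in Sample 2 than in Sample 1 and 2.30-fold lower in Sample 3 than in Sample 2. Its ratio in Sample 3 over Sample 1 turned from -0.38 to 0.04 with spike-in scaling. Ccne1, cyclin E1, had signals of 6528, 6925 and 3818 by its brighter probe and 230, 142 and 106.5 by the other. The probes disagreed on day 2, at 0.09 and -0.70, and were both lower on day 139 than on day 0, at -0.77 and -1.11. Ccne2, cyclin E2, was read by a dim probe that was well above background in Sample 1 alone, with a signal of 16.7. In Samples 2 and 3 it had 5.50 and 8.25, and the lowest signal of any probe well above background was 12.9, 14.0 and 18.2 in Samples 1, 2 and 3, so no fold is given for it. Without Ccne2, the genes at least 1.5-fold lower were 13 of 38 in Sample 3 over Sample 1, 22 of 38 over Sample 2 and 0 in Sample 2 over Sample 1.

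**Figure D2:**
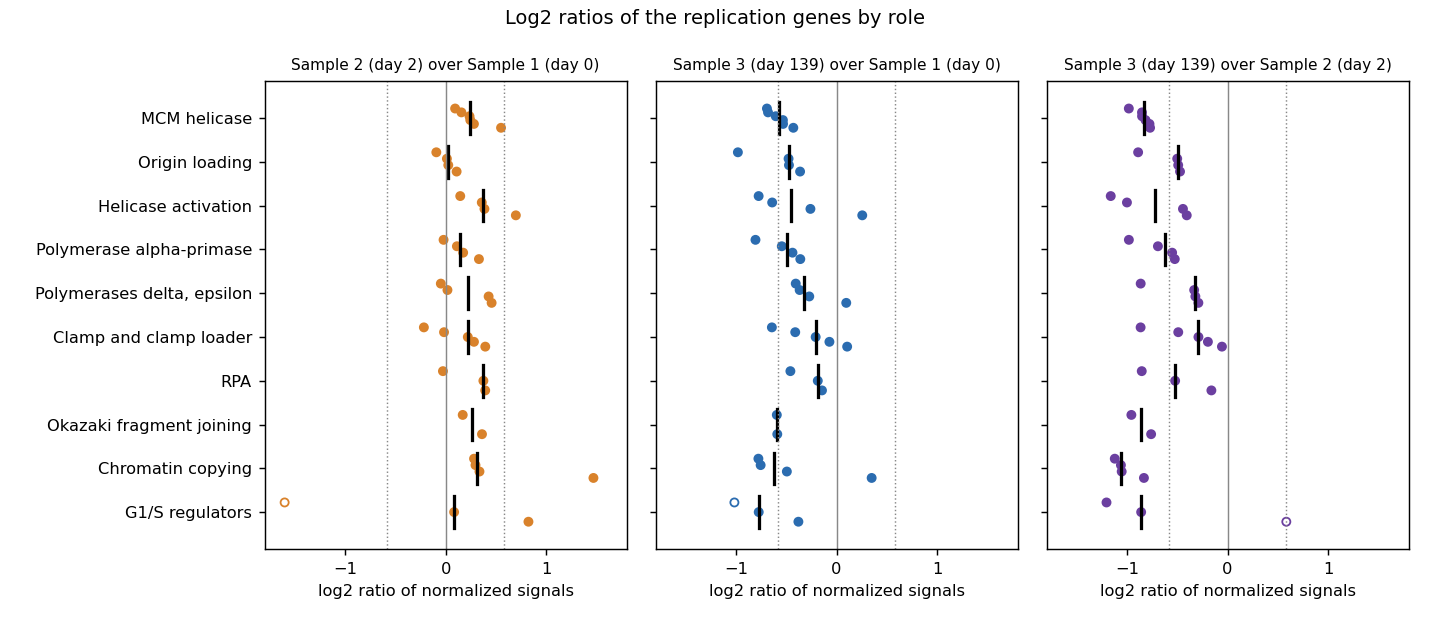
Log2 ratios of the 39 genes in the 3 comparisons, grouped by role, with 1 point per gene, hollow for Ccne2, a black bar at the group median and dotted lines at 1.5-fold. Medians in Sample 3 over Sample 2 ran from -0.29 for the clamp and its loader to -1.06 for chromatin copying, and with spike-in scaling those of the clamp group and of polymerases delta and epsilon turned above 0.

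Licensing genes were set beside polymerases and clamp loader genes within each comparison. The 10 genes of the MCM ring and its loading factors, geminin included, had medians of 0.13, -0.53 and -0.80. The 13 genes of primase, polymerases, clamp and clamp loader had 0.17, -0.37 and -0.49. In Sample 3 over Sample 2, 7 of the 10 licensing genes and 4 of the 13 others were at least 1.5-fold lower, against 14.1% of all detected genes. In Sample 3 over Sample 1 the counts were 4 and 2, or 40% and 15.4%, against 14.2% of all genes, so the share of the polymerase and clamp genes was near that of all genes. With spike-in scaling the median of the polymerase and clamp genes over Sample 1 turned to 0.019. The medians differed by -0.04 on day 2, by -0.17 in Sample 3 over Sample 1 and by -0.31 in Sample 3 over Sample 2, with no replicate to give an error for these differences. A difference of 2 medians within a comparison does not move with a common scaling factor, and it stayed between -0.50 and -0.31 in Sample 3 over Sample 2 under every way of processing tried. The ranges overlapped, since Prim2, at -0.98, was as low in that comparison as the lowest licensing gene, Mcm5, at -0.98. The MCM subunits had a median of -0.83 there and the loading factors -0.50, near the -0.49 of the other side. Polymerase alpha and primase, at -0.62, lay below the loading factors. Of the 7 licensing genes past 1.5-fold there, 6 were MCM subunits and 1 was Cdc6.

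Genes read by a second probe allowed a check of the signals within the array. Of the 39 genes, 11 had 2 detected probes, and their log2 ratios had, as quantile normalized, the same sign in 9 genes in Sample 2 over Sample 1, in 10 in Sample 3 over Sample 1 and in 10 in Sample 3 over Sample 2. The median difference between the probes of a gene was 0.16, 0.11 and 0.24. Differences over 1.5-fold were found for Uhrf1 and Ccne1 on day 2 and for Rfc5 in both comparisons of Sample 3. Probes of the same gene were thus mostly closer to each other than the median difference of the set between Samples 2 and 3, with Gmnn at 0.54 and Rfc5 at 0.70 the widest there. On day 2 the median probe difference, 0.16, was not far below the set's median log2 ratio of 0.24. Uhrf1 at 0.65 and Ccne1 at 0.78 were the widest on that day.

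**Figure D3:**
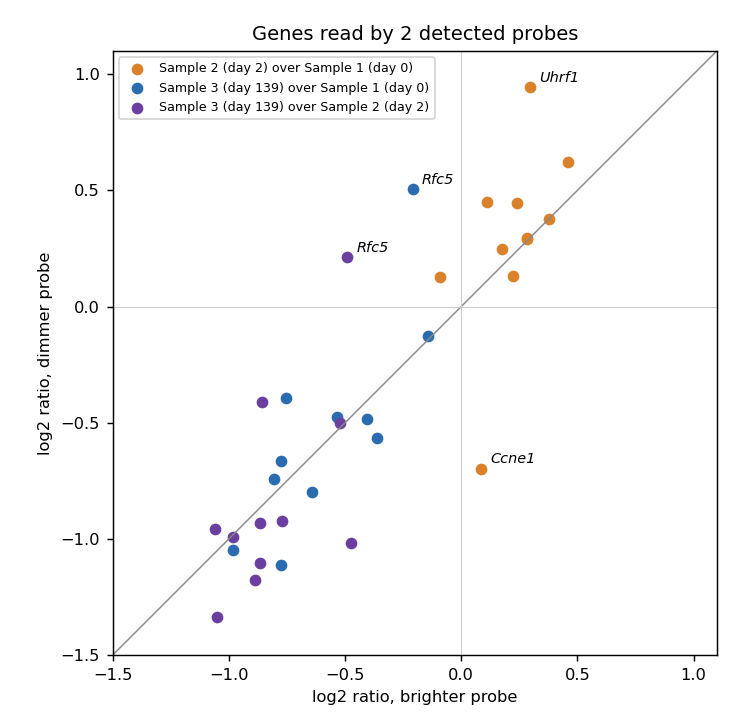
Log2 ratio by the dimmer probe against that by the brighter probe for the 11 genes with 2 detected probes, colored by comparison, with the line of equal values. Points for Sample 3 lie below 0 on both axes except for Rfc5, and Uhrf1 and Ccne1 lie farthest from it on day 2; the axes hold ratios as quantile normalized.

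Genes with and without the E2F motif overlapped in their ratios. The 13 genes with the motif had a median in Sample 3 over Sample 1 of -0.49, and the 18 genes of the promoter table without it -0.45. Over Sample 2 the medians were -0.82 and -0.66, and in Sample 2 over Sample 1 they were 0.28 and 0.16. Among genes with the motif were Cdc6, at -0.98 over Sample 1, and also Pold1 and Rfc3, at 0.10 and -0.07. At least 1.5-fold lower in Sample 3 over Sample 1 were 4 of the 13 genes with the motif and 6 of the 18 without it. The share of all detected genes was 14.2%. Over Sample 2 the counts were 9 of 13 and 9 of 18, against 14.1% of all genes. E2f1, Chaf1a and Mcm10 had no match in the window searched.

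Replication genes outside the set were lower on day 139 as well. All 42 genes of a further list, which includes other origin recognition subunits, accessory polymerase subunits, the kinases that fire origins and E2F factors, were measured. At least 1.5-fold lower were 15 of them in Sample 3 over Sample 1 and 18 over Sample 2, or 35.7% and 42.9% against 14.2% and 14.1% of all detected genes. One gene, Pold4, was higher in each, against 13.6% and 12.9% of all genes, and 0 passed that limit in either direction on day 2. Their medians were 0.09, -0.42 and -0.47, which became 0.07, -0.04 and -0.08 with spike-in scaling. E2f8 and E2f7, repressors of the E2F family, and Cdc7, the kinase that fires origins, had the lowest ratios over Sample 1, at -0.97, -0.95 and -0.93. At the other end stood Pold4, the small accessory subunit of polymerase delta, with signals of 1003, 974 and 1634 and a log2 ratio over Sample 1 of 0.70. Pole4 and Gins3, at 0.27 and 0.25, were also higher. The motif was in 47.2% of the 36 genes of this list that had a promoter in the table.

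The median log2 ratios of nucleotide supply and mitosis genes in Sample 3 were also below 0. Of 14 nucleotide supply genes all 14 were lower in Sample 3 than in Sample 1, 4 of them by at least 1.5-fold (28.6%, against 14.2% of all detected genes), and with spike-in scaling 7 were lower and 7 higher. Rrm2, the S-phase subunit of ribonucleotide reductase, had signals of 19250, 19359 and 10560. Thymidylate synthase, Tyms, was level over Sample 1 as quantile normalized, at -0.03, and its value with spike-in scaling is not given. Of 20 mitosis genes all 20 were lower in Sample 3 in both comparisons, 9 and 13 of them by at least 1.5-fold (45% and 65%, against 14.2% and 14.1%), and with spike-in scaling 16 and 18 were lower. Aurkb, a mitotic kinase, was well above background in Sample 2 alone, and without it 19 of 19 genes were lower in both comparisons and 16 and 17 with spike-in scaling. No share of all genes is given for the spike-in counts. Under that scaling the median of all detected genes was 0.38 over Sample 1 and 0.40 over Sample 2. Mki67, the proliferation marker Ki-67, had 30690, 27728 and 15556. On day 2 the mitosis median of 0.23 was close to the 0.24 of the 39 genes, while that of nucleotide supply was 0.02.

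Markers of cell types also differed between the samples, some in the direction of the replication genes and others not. Their part in these results was not tested. Erythroblast markers had a median of -0.66 in Sample 3 over Sample 1, with 18 of 20 genes lower and 12 by at least 1.5-fold (60%, against 14.2% of all detected genes), and of -0.60 over Sample 2. On day 2 their median was -0.00, whereas that of the replication genes was 0.24. Klf1, a red cell transcription factor, had signals of 1989, 1789 and 955, and Ank1, red cell ankyrin, 1267, 1261 and 566. Well above background were 20, 20 and 19 of its genes in Samples 1, 2 and 3. The globin genes Hba-a1 and Hbb-b1 lie at the top of the signal range, where quantile normalization sets the value, and without them the summed signal was 199463, 192037 and 138441. Megakaryocyte markers were lower too, by a median of -0.66 over Sample 1, with 8 of 8 genes lower and a summed signal between 18274 and 32275. Both medians kept their sign with spike-in scaling, at -0.27 and -0.28.

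Lymphocyte markers went the other way on day 139. All 12 B cell markers were higher than on day 0, at a median of 1.07, and their summed signal was 63618, 65492 and 123015 in Samples 1, 2 and 3. Germinal center B cell markers, of cells that divide rapidly, were higher in 7 of 7 genes at a median of 1.59, with summed signals of 3180, 2575 and 5563. Rgs13, a germinal center gene, had 24.4, 19.97 and 334. Plasma cell markers had a median of 1.26 (8 of 9 genes higher, summed signal between 39963 and 107348) and T cell markers of 0.78 (12 of 13 higher, summed signal between 17977 and 31901). Replication genes were therefore lower in the sample in which these lists were higher. Granulocyte precursor markers had medians of 0.39 on day 2 and 0.36 on day 139, with 9 and 8 of 10 genes higher than on day 0 and a summed signal between 20775 and 39256, of which Chil3 gave 27148 in Sample 1 and 3631 in Sample 3. Red pulp macrophage markers, at 0.05 and 0.06, had 4 of 8 genes higher each time and a summed signal between 87222 and 105715.

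All 12 B cell markers and all 8 red pulp macrophage markers were well above background in every sample, markers of cells that the spleen holds. In whole-spleen RNA, fewer dividing cells and less RNA per dividing cell cannot be told apart, nor can a smaller share of one cell type and a larger share of the others.

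**Figure D4:**
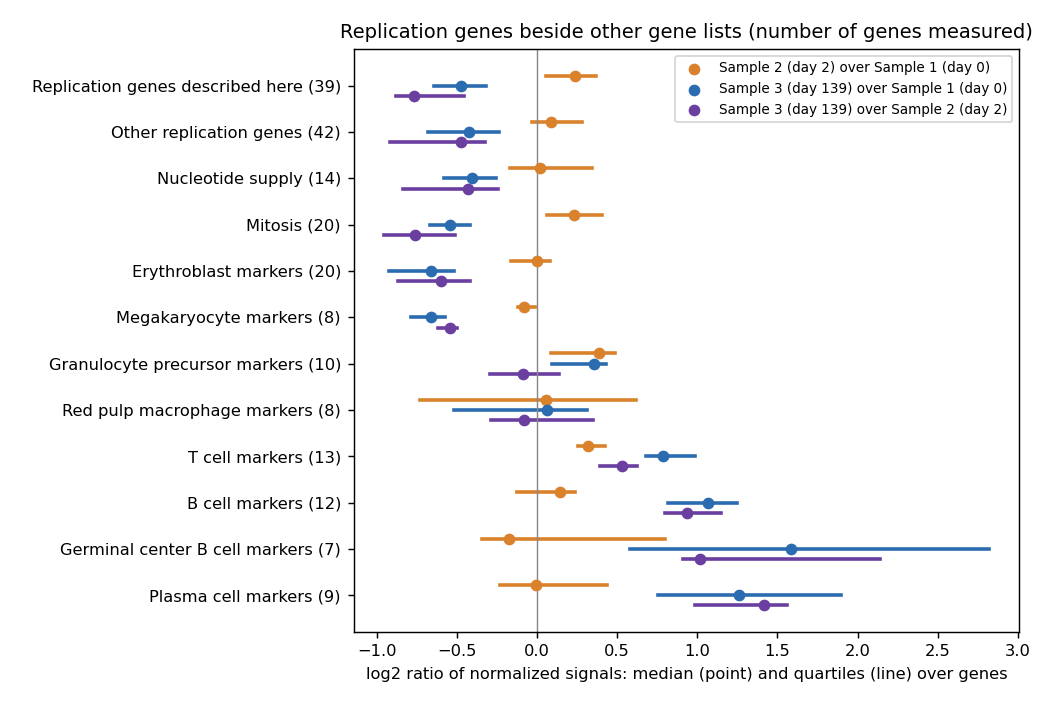
Median (point) and quartiles (line) of the log2 ratios over the genes of each list in the 3 comparisons, with the number of genes measured. Replication, nucleotide supply, mitosis, erythroblast and megakaryocyte lists lie below 0 in Sample 3 and B cell, germinal center, plasma cell and T cell lists above 0; with spike-in scaling all these medians kept their sign.

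**Figure D5:**
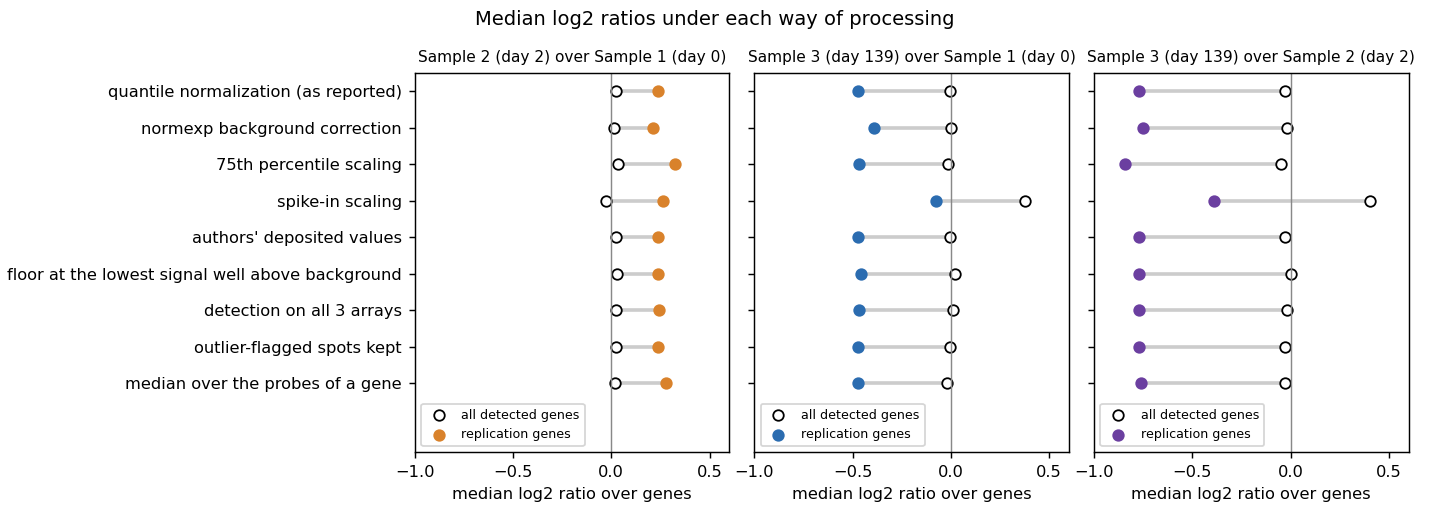
Median log2 ratio of the 39 replication genes (filled) and of all detected genes (open) under each way of processing, by comparison. In Sample 3 the replication genes lie to the left of all genes in every row, and spike-in scaling moves both to the right, to -0.077 and 0.38 over Sample 1.

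The distance between the filled and open points shows what the scaling leaves alone. Relative to the median of all detected genes, the median of the 39 genes lay between -0.48 and -0.39 in Sample 3 over Sample 1, between -0.79 and -0.73 over Sample 2, and between 0.20 and 0.29 on day 2, over all ways of processing tried. On this relative scale 37 of the 39 genes kept their direction under every way of processing in Sample 3 over Sample 1, 39 did so over Sample 2, and 34 in Sample 2 over Sample 1.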

How the data were processed

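Spleen RNA was measured on 3 one-color arrays of 60-base probes, 1 for each day. The authors deposited the scanner output, with the intensity of each spot on a linear scale after background subtraction and before normalization between arrays, and 1 table of processed intensity values per probe. Feature Extraction was version 10.7.1.1 by the file headers and 9.5.1.1 by the submitters' processing notes. Kits for RNA and labeling differ between the labels and the methods.

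Control and outlier-flagged spots were left out, the spots of a probe were averaged, and 55679 probes were quantile normalized over 3 arrays with a floor of 1, then taken to log2. The values differed from the deposited table by at most 0.0015 on the log2 scale. A probe was detected when at least 50% of its spots were well above background on at least 1 array, and a gene was read by its brightest detected probe. A gene counted as lower or higher at a ratio of 1.5. With 1 array per condition no p-value was computed, and the number of arrays limits the precision. The Z-score was the log2 ratio over the SD of the 1000 probes nearest in mean signal.

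The members, the lists and the alternatives were chosen with earlier results of these data known. All members may be named; per role, signals in every sample are given for the genes at either end of each comparison and for genes whose probes disagree, and from other lists only for some of the 3 highest and 3 lowest in Sample 3 over Sample 1 among genes well above background in both. Of the 203 genes of all lists, 10 were found under an older array name. No protein table was used, so probes were not matched to proteins, and those printed were chosen by splice junction, position and open frame instead. The alternatives were a normexp correction with an offset of 50 (limma 3.58.1, R 4.3.3), each array's 75th percentile or 7 spike-in controls as the scale, the deposited table, values raised to the dimmest signal that passed the background test, detection required on all 3 arrays, outlier spots kept, the median over probes, a 2-fold limit and a Z-score of 2 with the ratio. Other calculations used Python 3.11.15, numpy 2.4.6 and pandas 2.3.3, and were tested on simulated data. A further gene of the study is not reported here.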

Additional observations from a re-analysis of the deposited data

How the results depend on the processing

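Of the counts and medians recomputed under the alternatives, 356 stayed within 1.5 times the count or within the spot error, 22 moved beyond it, and 0 medians past 1.5-fold changed sign. Role medians were here taken relative to that of all detected genes, where a common scaling factor drops out. Part of the agreement was thus fixed in advance. Smaller medians then changed sign 6 times, all on day 2. This was 4 times for the loading factors, near 0 throughout, and once each for the G1/S regulators and the difference of licensing and polymerase genes. Not taken relative to all genes, medians of several roles in Sample 3 also turned with spike-in scaling, as given above. Spike-in scaling gave 2 genes at least 1.5-fold lower and 2 higher in Sample 3 over Sample 1 with a median of -0.077, and 7 lower and 1 higher over Sample 2 with a median of -0.39, the 1 higher being Ccne2. Taken relative to all genes, a choice made after seeing the data, it left 1 gene higher over Sample 2, again Ccne2. A 2-fold limit left 1 gene higher on day 2 and 6 lower in Sample 3 over Sample 2. It left 1 lower in Sample 3 over Sample 1, which is the dim Ccne2 (0 without it). The shares of all genes past 1.5-fold given above are as quantile normalized. They apply neither to the 2-fold counts nor to those under spike-in scaling. The Z-score left 1 higher and 0 lower on day 2 and 0 and 1 lower in Sample 3. The single gene lower on day 2, Ccne2, was lost under normexp correction, under the floor and with detection on all 3 arrays, each leaving 0. The median of the 3 G1/S regulators relative to all genes rested on that dim gene and on the probes of Ccne1. It was 0.06, -0.77 and -0.83 in Sample 2 over Sample 1, Sample 3 over Sample 1 and Sample 3 over Sample 2. In Sample 3 over Sample 1 it became -0.38 with normexp and -0.40 with the floor. On day 2 it became 0.43 with detection on all 3 arrays and -0.32 with the median over probes, which also gave -0.60 in Sample 3 over Sample 2. No replicate could be left out with 1 array per condition. No paired analysis was possible because each group has 1 sample. Spots of 1 probe on 1 array had a median SD of up to 0.10 on the log2 scale at signals from 50 to 500 and up to 0.062 above 500, so Ccne2, Cdc45 and Pola2 were the least precise.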
